A study of Drosophila melanogaster with 3 samples.

Results

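The genes ush, CG11050, Lk6, CG32772, CG9663 and cno each hold, inside an intron, one of the strongest binding sites mapped for the CG33213-eGFP fusion protein. Chromatin immunoprecipitation followed by sequencing (ChIP-seq), which recovers the DNA bound by a protein, was done with an anti-GFP antibody on Drosophila melanogaster embryos, males and females pooled, collected whole from 0 to 24 h of age. All came from 1 transgenic line that stably expresses CG33213 with GFP at its C terminus, and the 3 biological replicates form a single group. No comparison between conditions was possible, and whole embryos mix every cell type, so a strong site in few cells and a weaker site in many cannot be told apart.

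The 6 genes were chosen by the peak signal, the score that the authors' peak caller gave each peak, in the list of 4417 optimal peaks. Optimal is the authors' name for the list they kept by the irreproducible discovery rate, a measure of how reproducible ranked peaks are. An optimal peak need not be strong in every replicate. Of the optimal peaks, 62.4% were matched among the 4417 strongest peaks of every replicate. A peak counts as intronic when its summit, the base of highest signal, lies inside a gene, outside every annotated exon and over 500 bp from every transcription start site (TSS). Of the 25 peaks of highest signal, 6 were intronic, 1 in each of the 6 genes, which are 6 of 13945 protein-coding genes in the annotation. Of all 4417 optimal peaks, 996 were intronic, a share close to that among the 25. The weakest of the 6, in cno, had a signal of 1008 and rank 22. The next intronic peak below the limit, in Lrch, had a signal of 896.4 and rank 33. Because signal chose the genes, the signals and ranks of the 6 peaks are given as a description only, without a test.

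Introns of fly genes often hold regulatory DNA, and a long first intron near the promoter is a usual place for enhancers and for start sites of shorter transcripts. A peak in an intron need not act on its host gene, since nested and neighbouring genes can share the sequence. The gene ush (u-shaped) encodes a zinc finger cofactor of GATA transcription factors in blood, heart and bristle development. Lk6 encodes a kinase of the translation initiation factor eIF4E. The cno gene (canoe) encodes the fly afadin, which ties the actin cytoskeleton to adherens junctions. CG9663 belongs to the G family of ABC transporters. No role is given here for CG11050 and CG32772.

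The genes, in dm6 coordinates and with FlyBase identifiers, lie on 3 chromosomes. On chromosome 2L, ush (FBgn0003963) spans chr2L:476220-540560 on the plus strand, CG11050 (FBgn0031836) chr2L:6611011-6617117 on the plus strand and CG9663 (FBgn0031516) chr2L:3294926-3303130 on the minus strand. On 3R, Lk6 (FBgn0017581) spans chr3R:11750931-11764457 and cno (FBgn0259212) chr3R:5170004-5217456, both on the minus strand. CG32772 (FBgn0052772) spans chrX:4909102-4915161 on the plus strand.

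The summits themselves are shown by 201 bp of sequence, read 5′ to 3′ on the plus strand of dm6, with the summit in the middle, because the base composition described further on can be seen in them. The windows are chr2L:480954-481154 in ush, chr2L:6612613-6612813 in CG11050, chr3R:11760960-11761160 in Lk6, chrX:4910291-4910491 in CG32772, chr2L:3302074-3302274 in CG9663 and chr3R:5215439-5215639 in cno. Capitals mark the word GTTTTA or its reverse complement TAAAAC, which lay in 5 of the 6 windows. The word was picked after these windows had been searched for shared words, so its presence in them is no finding. It lay in 21.8% of all optimal windows and in 18.2% of those of other intronic peaks in protein-coding genes.
ush: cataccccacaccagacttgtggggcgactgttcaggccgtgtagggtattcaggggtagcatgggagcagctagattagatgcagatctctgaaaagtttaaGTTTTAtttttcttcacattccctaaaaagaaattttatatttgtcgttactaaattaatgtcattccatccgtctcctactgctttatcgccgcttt
CG11050: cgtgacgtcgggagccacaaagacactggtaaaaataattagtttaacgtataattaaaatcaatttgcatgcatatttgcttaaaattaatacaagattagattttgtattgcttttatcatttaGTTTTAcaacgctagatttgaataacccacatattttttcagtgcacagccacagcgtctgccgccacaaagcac
Lk6: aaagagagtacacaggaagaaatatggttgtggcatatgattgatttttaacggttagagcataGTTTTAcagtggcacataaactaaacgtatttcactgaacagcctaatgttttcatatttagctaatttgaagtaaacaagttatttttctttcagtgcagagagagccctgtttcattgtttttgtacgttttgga
CG32772: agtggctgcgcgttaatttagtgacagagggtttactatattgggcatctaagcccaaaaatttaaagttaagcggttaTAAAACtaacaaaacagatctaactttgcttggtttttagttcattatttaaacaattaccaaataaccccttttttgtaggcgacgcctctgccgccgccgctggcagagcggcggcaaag
CG9663: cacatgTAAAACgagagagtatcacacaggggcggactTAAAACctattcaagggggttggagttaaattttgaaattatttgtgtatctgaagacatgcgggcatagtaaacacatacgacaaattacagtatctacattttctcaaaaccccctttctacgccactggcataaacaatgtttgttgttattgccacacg
cno: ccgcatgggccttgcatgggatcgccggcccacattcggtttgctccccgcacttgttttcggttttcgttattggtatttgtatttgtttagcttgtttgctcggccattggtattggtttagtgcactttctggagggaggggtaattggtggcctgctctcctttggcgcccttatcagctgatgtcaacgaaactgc

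The 6 intronic peaks were placed at nearly the same point by every replicate. The summit in each replicate lay at most 26 bp from the optimal summit, and its rank among the 30000 entries of the replicate's list was between 2 and 52. In every replicate list and in the pooled list, this summit was the strongest one of its gene and of 10 kb to either side. The runner-up in the optimal list ranked 72 at ush, 131 at CG11050, 244 at cno, 309 at Lk6, 1551 at CG32772 and 2766 at CG9663. The peaks were 284 to 433 bp wide, with a median of 346.5 bp, and other distal intronic peaks had a median width of 384 bp. The replicates were pooled to make the signal that chose the genes, so their ranks show the spread between replicates and are no independent support. The depth of the libraries is unknown, because the lists hold no read counts.

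The ush peak (chr2L:480898-481279, summit at 481054) ranked 3 in the optimal list, with a signal of 1876. Its signal was 679.8, 544.6 and 660.7 in replicates 1, 2 and 3, and its rank was 4 in each of them. The CG11050 peak (chr2L:6612497-6612929, summit at 6612713) ranked 5 and had replicate signals of 605.7, 631.8 and 585.5. Its replicate ranks were 5, 2 and 5, a mean of 4.0 ± 1.73 (SD, n = 3). These 2 sites kept to the 5 strongest entries of every replicate.

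The Lk6 peak (chr3R:11760883-11761217, summit at 11761060) ranked 9, and its ranks in replicates 1, 2 and 3 were 10, 11 and 6, where its signals were 423.6, 402.7 and 581.0. The CG32772 peak (chrX:4910206-4910545, summit at 4910391) ranked 13, and it ranked 14 in each replicate with signals of 394.2, 366.4 and 390.8. The CG9663 peak (chr2L:3301998-3302350, summit at 3302174) ranked 14, with replicate ranks of 23, 13 and 12 and signals of 343.4, 369.2 and 430.5. Signals of different lists are on different scales, so only the ranks can be set side by side.

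The cno peak (chr3R:5215395-5215678, summit at 5215539) varied most between replicates. Its ranks were 12, 52 and 23 in replicates 1, 2 and 3, a mean of 29.0 ± 20.7 (SD, n = 3), and its signals were 417.7, 244.1 and 347.3. Replicate 2 gave the weakest rank, and without it the mean rank was 17.5.

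**Figure D1:**
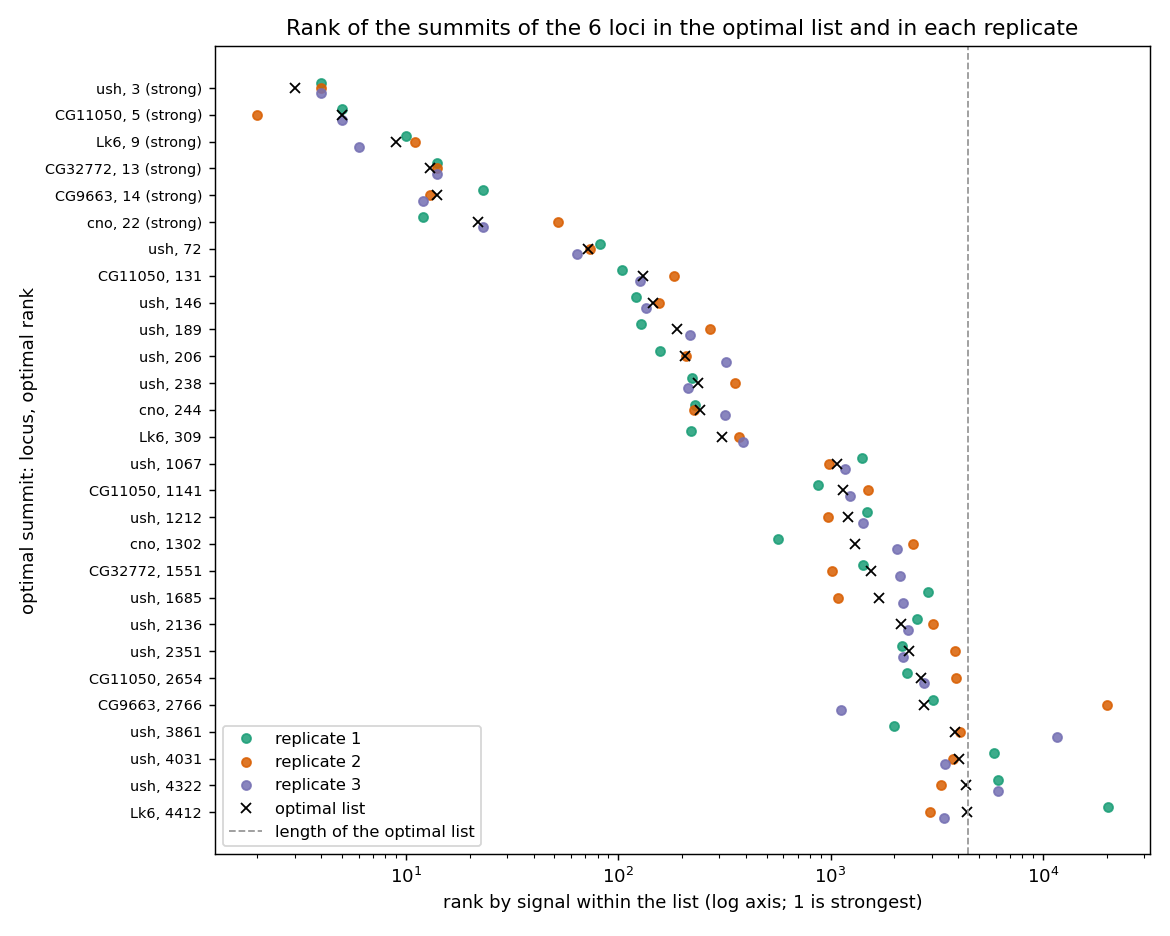
Rank by signal (log axis, 1 is strongest) of each of the 28 optimal summits in the 6 loci, in the optimal list (crosses) and in replicates 1 to 3 (coloured points, set slightly apart in height); the dashed line marks rank 4417. The 6 strong intronic summits stay between rank 2 and 52, while 5 weaker summits pass the dashed line in at least 1 replicate.

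All 6 peaks lay about 1 to 2 kb from an annotated start site. The distance from the summit to the nearest TSS of any gene was 956 bp in CG9663, 981 bp in Lk6, 1026 bp in CG11050, 1289 bp in CG32772, 1366 bp in ush and 1917 bp in cno. None of the 6 lay beyond 2 kb, and 409 of 966 other distal intronic optimal peaks of protein-coding genes (42.3%) lay within 2 kb. The median distance of those others was 2558 bp, with the middle 50% between 1156 and 5900 bp. The distance was not used to choose the genes beyond the 500 bp limit, and no test over peaks was made.

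**Figure D2:**
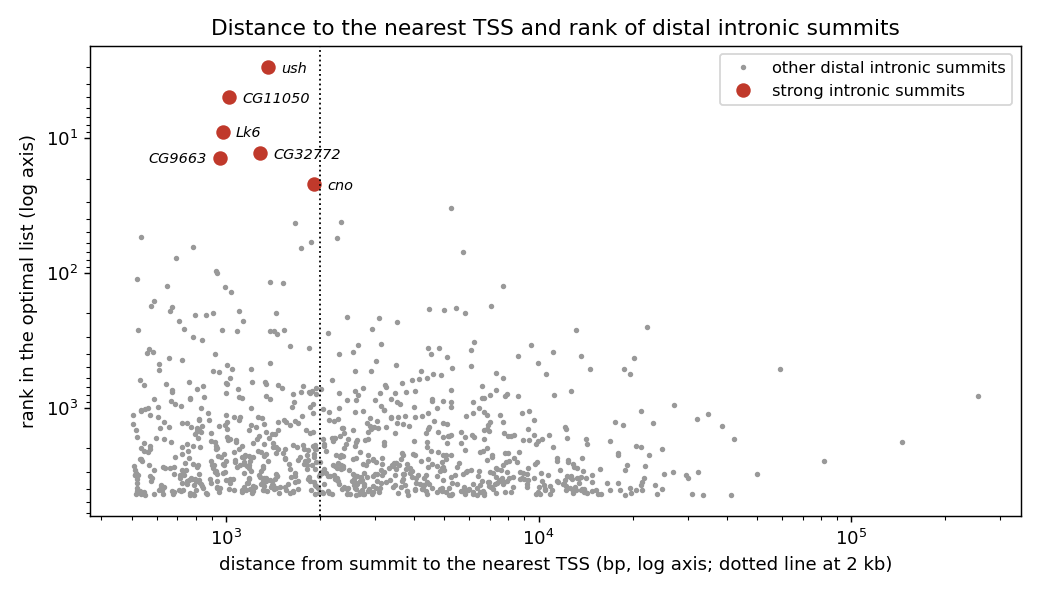
Distance from the summit to the nearest TSS (bp, log axis) against rank in the optimal list (log axis, strongest at the top) for the 6 strong intronic summits (red, named) and the 966 other distal intronic summits of protein-coding genes (grey). The red points fall between 956 and 1917 bp, left of the dotted line at 2 kb, and grey points reach 254766 bp.

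The nearest start site was not always that of the full-length host transcript, and 2 of the 6 summits lay upstream of the nearest TSS. In ush, the summit lay 4834 bp inside the gene from its own first start site at 476220. The nearest TSS was that of cbt (cabut), which encodes a zinc finger transcription factor of the TIEG family. The cbt gene is nested in the same ush intron on the opposite strand, and the summit lay 1366 bp upstream of its TSS at 479688. In Lk6, the summit lay 981 bp upstream of the internal TSS at 11760079 and 3397 bp downstream of the outer TSS at 11764457. The other 4 summits lay downstream of the nearest TSS, which belonged to the host. On the far side, the next TSS was that of lncRNA:CR44913 for CG11050, 6367 bp away, and that of CG9664 for CG9663, 7468 bp away.

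The introns that held the summits differed widely in size. The ush summit lay in the first intron of 2 transcripts, which is 13185 bp long in one and 49060 bp in the other. Nested in the longer form are cbt and the long non-coding RNA genes lncRNA:CR46258 and lncRNA:CR46259, neither of which had a bound promoter, while cbt did. No gene was nested in the other 5 introns. The cno summit lay 1393 bp into a first intron of 13498 bp in 6 of 8 transcripts, and the Lk6 summit 2423 bp into the 6991 bp first intron of 1 of 2 transcripts. In CG9663, a gene with a single annotated transcript, it lay 871 bp into the 1292 bp first intron. In CG32772, it lay near the middle of an intron of 1054 bp that is the first or the second intron, depending on the transcript. In CG11050, the summit lay in the middle of the second intron, which is 140 bp long in all 3 transcripts. There the peak interval of 433 bp reached into the exons on both sides, so intronic applies to the summit and not to the whole peak.

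A position in a first intron was common among weaker peaks too. Counting any transcript, 5 of the 6 strong summits and 667 of 966 other distal intronic summits (69.0%) lay in a first intron. All 6 hosts also belong to the longest 25% of protein-coding genes, with lengths from 6060 bp in CG32772 to 64341 bp in ush. Of the 661 protein-coding genes with a distal intronic optimal summit (4.74% of all), 614 belong to that length class.

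The genes' own promoters were bound in 4 of the 6 cases, counting an optimal summit within 500 bp of any TSS of the gene. Of all annotated genes 20.7% were bound in this way, of protein-coding genes 25.0%, and of the 661 protein-coding hosts of a distal intronic summit 51.7%. The last share is the closest background, and 4 of 6 is near it. In each of the 4 genes, the promoter peak ranked far below the intronic one. The genes were chosen for an intronic peak among the 25 strongest, so this order was nearly set by the choice.

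At CG11050, the promoter summit at 6610901 lay 110 bp upstream of the outer TSS and ranked 131, with replicate ranks of 104, 184 and 127. At cno, the summit at 5217497 lay 41 bp upstream of the outer TSS and ranked 244, with replicate ranks of 231, 228 and 317. At Lk6, the summit at 11764598 lay 141 bp upstream of the outer TSS and ranked 309, with replicate ranks of 220, 370 and 386. These 3 promoter peaks were among the 4417 strongest of every replicate.

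The promoter call of ush was weaker. Its bound start sites are the internal ones at 523466 and 523736, near a summit at 523765 of rank 4031. That summit ranked 5880, 3790 and 3451 in the replicates, so it was outside the 4417 strongest entries of replicate 1. The optimal summit closest to the outer TSS of ush was 3732 bp away, at the promoter of CG4297. A stronger peak of rank 206, with its summit at 490284 in a ush exon, stood 551 bp upstream of the TSS at 490835 that ush shares with lncRNA:CR46258, just outside the limit. With only the 50% of optimal peaks with higher signal, or with the strongest peaks bound in every replicate, 3 of 6 promoters were bound and ush was not.

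CG32772 and CG9663 had no optimal promoter peak. At CG32772, the outer TSS had no entry within 500 bp in the pooled list of 30000 peaks or in replicates 2 and 3, and 1 entry of rank 23938 in replicate 1. Its internal TSS had 1 entry near it in each replicate, of rank 25857, 8981 and 7839. At CG9663, the closest optimal summit lay 553 bp upstream of the single TSS, at 3303683, and 417 bp from the TSS of the neighbouring gene CG3277. It ranked 2766, with replicate ranks of 3051, 20089 and 1114. Entries lay within 500 bp of the CG9663 TSS in the pooled list (best rank 6540) and in every replicate, with best ranks of 3051, 4579 and 5257. The one of rank 3051 is the replicate 1 entry matched to the summit at 3303683. In replicate 2, the entry of rank 4579 was stronger than the one matched to that summit, and in replicate 3 the entry of rank 5257 was weaker. With a limit of 1000 bp, 5 of 6 promoters were bound, CG9663 included.

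**Figure D3:**
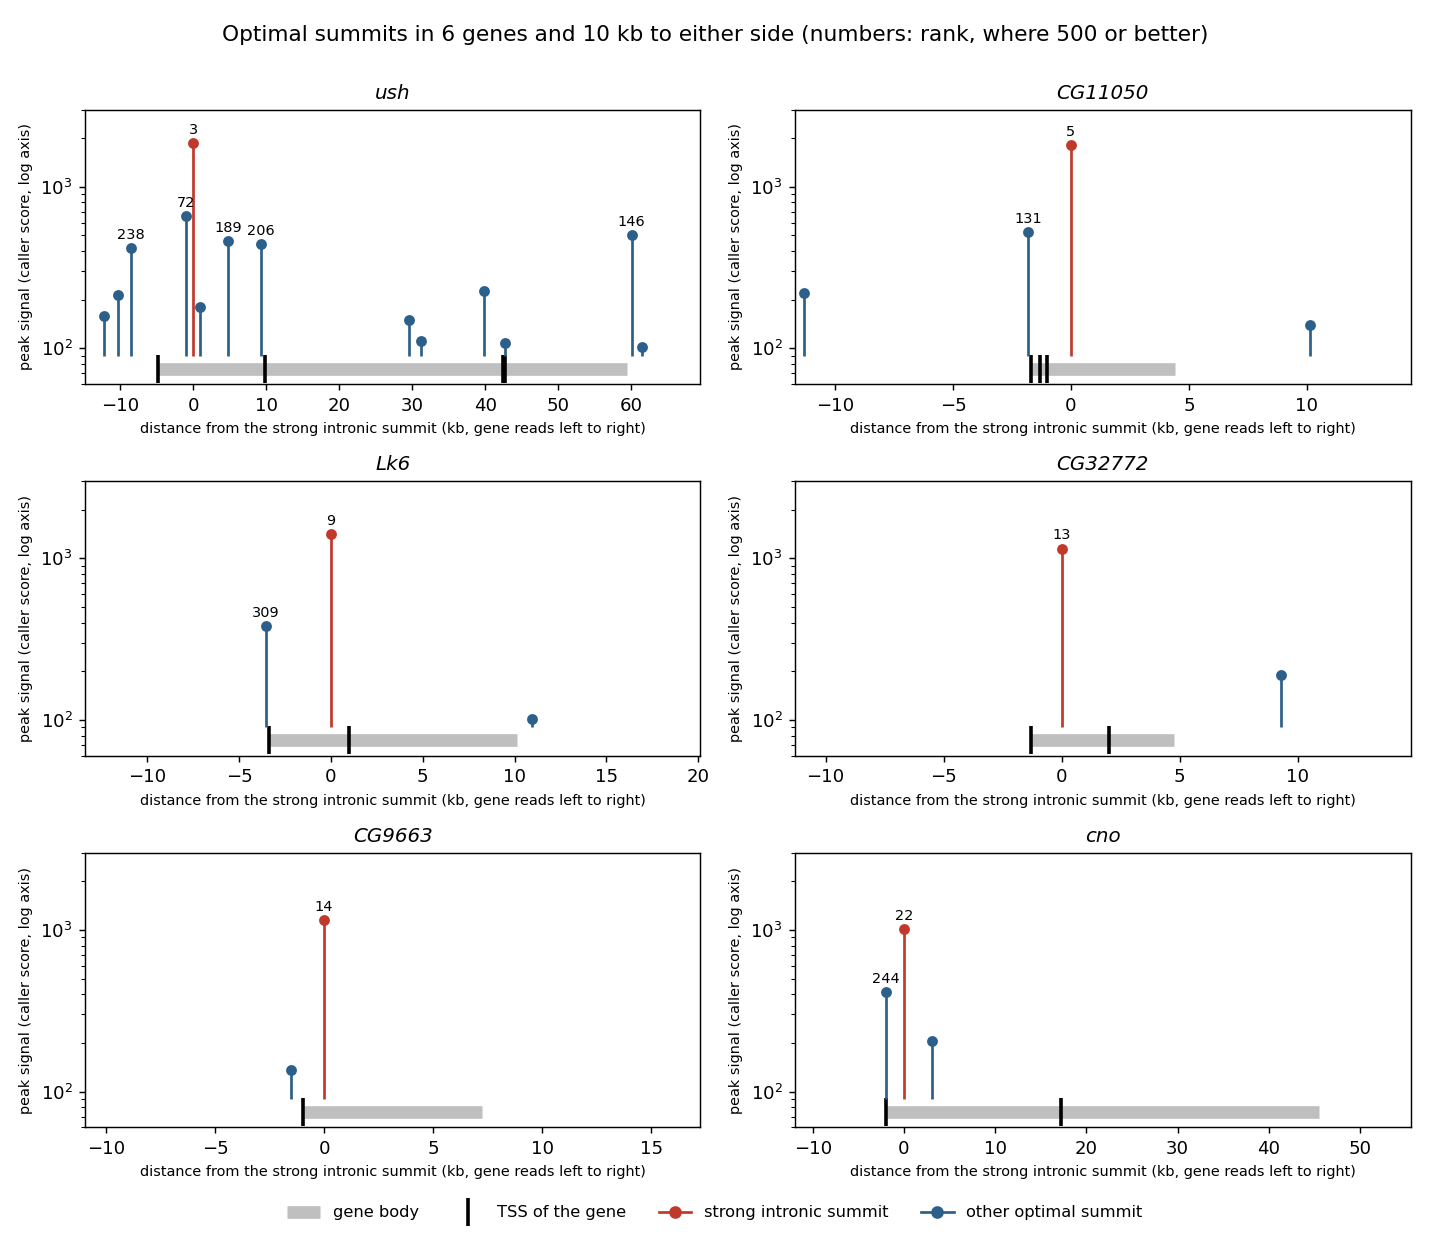
Signal (caller score of the optimal list, log axis) of every optimal summit in the 6 genes and 10 kb to either side, by distance from the strong intronic summit in kb, with each gene drawn to read from left to right; grey bars are gene bodies and black ticks the TSSs of the gene. The strong intronic summit (red), by whose signal the gene was chosen, is the highest in each panel, and ush has 14 summits while CG32772 and CG9663 have 2 each.

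The loci differed in how many other peaks they held. In the 6 genes and 10 kb to either side, 265.7 kb in all, there were 28 optimal summits, of which 15 lay in the genes themselves. This comes to 10.5 summits per 100 kb, a density that includes the peaks that chose the genes, against 3.3 over the 6 chromosome arms. Each locus was picked for holding a peak, while the arms were taken whole, so nothing is read from this contrast. Outside the 6 strong peaks, 22 summits remained. Of all 28, 23 were found within 150 bp among the 4417 strongest peaks of every replicate, against 62.4% of all optimal summits. Since 6 of the 28 were chosen for their signal, nothing is read from this share.

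The ush locus held 14 of the 28. On the side of cbt, 995 bp from the strong ush summit, lay a peak of rank 72 with its summit at 480059, 371 bp from the TSS of cbt. Its replicate ranks were 82, 74 and 64. On the other side, 865 bp away, lay a summit of rank 1685. Further along ush stood summits of rank 189 at 485859, of rank 1067 at 520874, and of ranks 2351 and 3861 at 510598 and 512251. The one of rank 3861 ranked 1984, 4064 and 11631 in the replicates, so replicate 3 did not hold it among its strongest peaks. In all, 6 distal intronic summits lay in ush, and 11 of 661 host genes had as many or more.

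Neighbours of ush carried peaks as well. Upstream, CG4297 had a promoter peak of rank 238 and intronic summits of rank 1212 and 2136. Downstream, the gene lwr, which encodes the SUMO-conjugating enzyme of the fly, had an exonic summit of rank 146 at 541115 and a promoter summit of rank 4322 that lay 22 bp from its TSS. The promoter summit of lwr ranked 6163, 3309 and 6117 in the replicates, and the exonic one 122, 156 and 135.

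The other loci held fewer summits, but they were also shorter. Per 100 kb, the ush locus held 16.6 optimal summits and the CG11050 locus 15.3, which is close to it. Lk6 held 8.95, CG32772 7.67, CG9663 7.09 and cno 4.45. The CG11050 locus also held promoter summits of Dpp10, a gene of the dipeptidyl peptidase family (rank 1141), and of CG34345 (rank 2654). The Lk6 locus held a summit within 500 bp of the start sites of CG6923 and CG43062 (rank 4412), with replicate ranks of 20231, 2925 and 3420. Next to CG32772, the 1 other summit stood in an intron of Hgsnat (rank 1551), 9278 bp from the strong one. In cno, a further intronic summit of rank 1302 stood 3039 bp deeper in the gene, with replicate ranks of 568, 2440 and 2055.

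The strong summits lay between flanks richer in G and C bases than the centre. The central 101 bp held 20.8% G and C in CG11050, 27.7% in CG32772, 30.7% in Lk6, 33.7% in ush and in CG9663, and 40.6% in cno. Other distal intronic peaks had a median of 34.7% there, with the middle 50% between 30.7% and 40.6%, so ush and CG9663 were close to that median and cno at the upper end of that range. In the same order, the outer 50 bp on each side held 48.0%, 56.0%, 36.0%, 49.0% and 45.0%, and 62.0% in cno. The flanks were thus richer by 5.31 percentage points in Lk6, the smallest difference, and by 28.3 in CG32772, the largest. All 6 differences had this sign. Among the 966 other distal intronic peaks 65.7% had it, with a median difference of 3.36 points and the middle 50% between -2.67 and 9.42.

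Of 2857 promoter peaks 41.6% had richer flanks, and their median difference was -2.5 points. Within the 6 loci, 15 of the 22 other summits had richer flanks, with a median difference of 3.4 points. In CG11050, the central 101 bp lie within the 140 bp intron, and the flanks reach into the exons beside it. Stretches with few G and C bases were not limited to the summits. In windows of 51 bp within 500 bp of the summit, the lowest share lay within 100 bp of the summit in ush, Lk6 and CG32772, at 21.6%, 25.5% and 25.5%. In the other 3 genes it lay farther off. In CG9663 it was 15.7%, at 225 bp from the summit, in cno 19.6%, at 475 bp, and in CG11050 15.7%, at -500 bp, against 17.6% at the summit. The part of base composition in the signal was not tested.

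**Figure D4:**
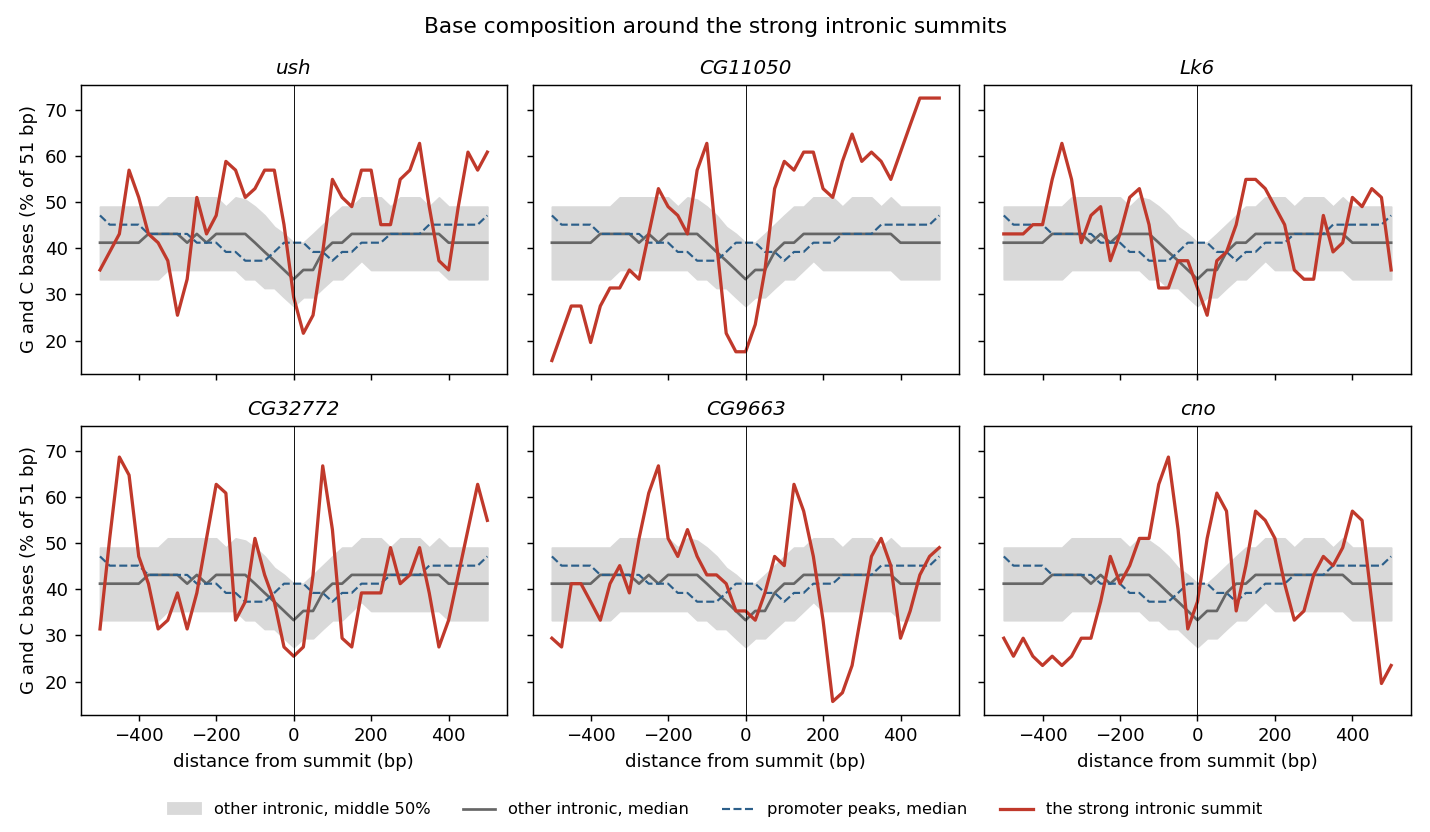
Share of G and C bases (% of 51 bp, every 25 bp) by distance from the summit along the plus strand, for each strong intronic summit (red), with the median and the middle 50% of the 966 other distal intronic peaks (grey) and the median of promoter peaks (dashed blue). At the summit the red line is below the grey median of 33.3% in ush, CG11050, Lk6 and CG32772 and above it in CG9663 (35.3%) and cno (37.3%), and dips as low or lower occur elsewhere, as in CG9663, where the share is 15.7% at 225 bp.

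Of 12 consensus words of promoter and enhancer factors, searched on both strands within 100 bp of the summit, 7 were found in at least 1 of the 6 windows and 5 in none. The DNA replication-related element TATCGATA lay in 0 of 6 windows, against 7.9% of all optimal windows and 0.518% of other distal intronic windows. Motif 1, searched as GGTCACAC, also lay in 0 of 6, against 7.99% and 0.725%. No match was found either for the Zelda core CAGGTA, for AGATAA or for ACACAC. These words lay in 4.97%, 15.8% and 15.9% of other distal intronic windows. A missing word says only that these letters are not in the window.

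The words that were found lay in 8.9% to 30.4% of other distal intronic windows. GAGAG, bound by GAGA factor, lay in the windows of Lk6, CG9663 and cno, and in 27.4% of other distal intronic windows. TGATAA, one form of the GATA word, lay in those of CG11050 and cno, against 18.3%, and TATAAA in those of ush and CG32772, against 30.4%. CGATA was found in ush, CAGCTG and GCCAT in cno, and TGCATA in CG11050, against 23.4%, 8.9%, 26.9% and 17.2% of other distal intronic windows. The words CGATA and TATCGATA overlap. Within 50 bp of the summit, 5 pairs of word and window were left of the 11 found within 100 bp.

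A search for words that the 6 windows share was made after the windows had been seen, and so carries no test. Of all words of 6 letters, 6 were present in 5 of the 6 windows, all rich in A and T. The word GTTTTA marked above was one of them, with cno as the window that lacked it, and it lay in 18.2% of other distal intronic windows and 21.8% of all optimal windows. Of the 19 other windows among the 25 strongest peaks, 4 held it. Longer words that contain it were shared by fewer windows. AGTTTTA lay in those of ush, CG11050, Lk6 and CG32772 and in 6.63% of other distal intronic windows, and GTTTTACA in those of CG11050, Lk6 and CG9663 and in 1.14%. No factor is named from these words.

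None of the 6 windows touched an annotated transposable element, as 33 of 4417 optimal windows (0.747%) did, and the closest element lay 9024 bp away, from the cno summit. A search with blastn gave no second match of any of the 6 windows on the 6 chromosome arms at an E-value of 1e-05.

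The intronic peaks that follow in signal lay in Lrch (rank 33), Tlk (42), NFAT (43), the overlapping genes HmgD and HmgZ (54), Raf (55) and CG9837 (59). These are the genes most like the 6 by the measure that chose them. Tlk encodes the tousled-like kinase, NFAT a transcription factor of the Rel family, HmgD and HmgZ high mobility group proteins, and Raf the kinase of the Ras pathway. Their summits ranked between 13 and 110 in the replicates and lay 534 to 5247 bp from the nearest TSS. All 6 of these summits also had flanks richer in G and C than the centre, by 4.34 to 18.3 points, and 3 of the 6 windows held GTTTTA. Of these 6 summits, 3 lay beyond 2 kb, those of Lrch, Tlk and Raf.

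Genes related to 4 of the hosts, by pathway or by family, were looked up in 4 lists. Their counts are set beside the 25.0% of protein-coding genes with a bound promoter and the 4.74% with a distal intronic summit. In the longest 25% of protein-coding genes, 17.6% had such an intronic summit. Among 8 GATA factors and partners of ush, none had a bound promoter, and GATAd (rank 1713) and tup (rank 1924) held an intronic summit. Of 11 genes around Lk6 in translation control and the Ras pathway, 6 were bound at the promoter. They were eIF4E1, which encodes the substrate of Lk6 (rank 1080), Ras85D (1112), Thor, the gene of the eIF4E-binding protein (1462), S6k (1844), eIF4A (2084) and p38a (3802). Raf, listed under an older symbol, was the 1 gene of these with an intronic summit.

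Of 13 adherens junction and Rap1 genes around cno, 10 had a bound promoter. The strongest were at the kinase gene Abl (rank 154), at PDZ-GEF, whose product activates Rap1 (371), and at the catenin gene p120ctn (372). They were followed by sdk (909), Vinc (1393), pyd (1839), Rap1 (2221), the cadherin gene shg (2335), baz (3252) and alpha-Cat (3592). Of these 13, ed (2175) and pyd (2069) held intronic summits. Of 14 ABC transporter genes of the G family, 3 were bound at the promoter, E23 (rank 408), CG17646 (1491) and CG3164 (3942). Of these 14, E23 (2 summits, best rank 1096) and CG3164 (rank 4296) held intronic summits. CG9664, which lies next to CG9663, was not bound. The best-ranked intronic peak of these lists was that of Raf, at rank 55. The lists are short and their genes differ in length, so nothing particular to a list is drawn from the counts.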

How the data were processed

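ChIP-seq peak lists in narrowPeak format were used, with dm6 coordinates. The authors made a relaxed list of 30000 entries from the alignments of each replicate and a control, and 1 more from all alignments together, as the file lists deposited with the samples record. From these came the optimal list, by the irreproducible discovery rate. No source used here names the caller, the aligner or the rate. The deposited signal is the authors' peak caller score, used as a rank within a list. The −log10 q values deposited by the authors reached 4.02 and entered no result. The deposited summit offset gave each summit's position. The control and the dm3 lists were not analysed here.

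From the lists, summits (printed 1-based) were placed on the Ensembl BDGP6.54 annotation (release 115, transposable elements left out), and sequence was read from the RefSeq assembly of the same release, which holds dm6. Python 3.11.15 with pandas 2.3.3 and blastn 2.17.0 were used. A summit was matched to the closest replicate summit within 150 bp. Base composition and words used the 201 bp around the summit. Older gene symbols were matched through RefSeq synonyms, and Tor and Rap1GAP1 had no match. The distance and matching steps were tested on simulated data. Named genes are the 6 hosts, genes with a TSS within 500 bp of a summit in the loci, genes nested in the introns or nearest to the summits, the next 6 hosts by rank, and list members with a peak. CG4297, Hgsnat and lwr also host summits in the loci. The members, lists and tests were chosen with earlier results of these data known. Only description was possible with 1 group, and alternatives changed distances, flanks, lists and replicates.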

Additional observations from a re-analysis of the deposited data

How the results depend on the processing

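Of 45 alternative values, 41 stayed within 1.5 times the reported count or within 1 SD of the reported mean rank. Many of the 41 were bound to do so and are no support. With 3 replicates, leaving 1 out cannot move a mean rank by 1 SD. Asking for fewer replicates can only raise the 23 summits found in all, and 28 is the most possible. The exceptions follow from their construction. The gene bodies alone held 15 of the 28 summits. Measured from the host's own start sites, 1 of the 6 strong summits (ush) lay beyond 2 kb, and with 1 kb as the limit 4 lay beyond it. Words within 50 bp of the summit gave 5 pairs of word and window. Flanks of 5 and 20 kb gave 24 and 34 summits, and the 50% of peaks with higher signal gave 21. Bound promoters numbered 3 to 5 of 6. Leaving out each replicate gave 24 to 25 summits found in all remaining replicates, against 23 with all 3. The mean rank of the cno summit ran from 17.5 to 37.5. Counting a promoter within 1000 bp without the strong summits themselves, an alternative added after the data were seen, also gave 5. The optimal list could not be rebuilt without a replicate. No paired analysis was possible because there is a single group. Without read counts, the depth that limits weak peaks is unknown, and the control was not used here.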

Other observations

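Raf, the host of the intronic peak of rank 55, held 8 distal intronic summits, more than the 6 of ush, and no optimal summit at its own promoters. CG9837, the host at rank 59, had no bound promoter either, while Lrch, Tlk and NFAT did. Raf, CG9837, CG32772 and CG9663 thus each held an intronic peak without an optimal peak at their own promoters. Among protein-coding genes with a distal intronic summit, 342 of 661 had both.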
